A study of Mus musculus with 9 samples.

Results

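PTHrP(1-34), the amino-terminal fragment of parathyroid hormone-related protein, was applied for 4 h to white adipocytes in culture and compared with control cultures of the same adipocytes. The comparison took the 3 arrays labelled as PTHrP treatment and the 3 labelled as control group, that is 6 of the 9 Affymetrix mouse arrays of the series. The other 3 arrays hold cells given the related peptide PTH(1-34). All 18193 genes that at least 1 probe set names alone were tested, each by its brightest such probe set.

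The cells of all groups were grown from the stromal-vascular cells (those other than mature fat cells) of inguinal fat pads of male C57BL6 mice, 30 to 35 days old. Fat cell formation was started in each culture over 2 days with dexamethasone at 1 µM, insulin at 5 µg/mL, isobutylmethylxanthine at 0.5 µM and rosiglitazone at 1 µM. Insulin and rosiglitazone were then kept, and from day 6 the cells had plain medium. On day 8 the treated cultures received 100 ng/ml of PTHrP(1-34) or of PTH(1-34), with RNA taken after 4 h. The sources used here do not say how the controls were treated. Rosiglitazone, an agonist of the nuclear receptor PPARγ that itself favours thermogenic gene expression, was thus part of the history of controls and treated cells alike. The labels call the replicates biological without saying whether they are separate mice or separate cultures, so p-values measure the spread between these samples only.

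PTHrP and PTH bind the same G-protein-coupled receptor, encoded by Pth1r, which couples mainly to the stimulatory G protein and raises cyclic AMP. Cyclic AMP activates protein kinase A, which phosphorylates the transcription factor CREB and, in fat cells, drives lipolysis and the thermogenic programme of which the mitochondrial uncoupling protein Ucp1 is the best-known member. In bone the same receptor raises RANKL, the cytokine that promotes osteoclast formation.

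The median signal of the 9 arrays lay between 48.3 and 52.7 units of array intensity, and replicate arrays of the 2 groups correlated across probe sets at 0.994 to 0.996 (Pearson, log2). All 10 measured adipocyte markers lay above the dim level of 29.1, which is the 40th percentile of probe set signals, and Adipoq, the adiponectin gene, was at 13851, 13279 and 13724 in the control arrays and 13369.5, 13687 and 12967 in the PTHrP arrays. Lep, the leptin gene, was below that level in both groups. The lists of other cell types had 8 of 12 macrophage, 4 of 10 endothelial, 3 of 10 skeletal muscle, 2 of 10 epithelial and 1 of 9 lymphocyte markers above it. All 10 smooth muscle and pericyte markers and 10 of 11 preadipocyte and fibroblast markers were above it. RNA integrity was read from the array's own actin controls, whose 3′ to 5′ ratio was 1.47 ± 0.03 (SD, n = 3) in controls and 1.56 ± 0.05 (n = 3) with PTHrP, with no overlap (exact permutation p = 0.1, two-sided, the smallest that 3 against 3 allows). For Gapdh the means were 0.965 and 0.960 (exact permutation p = 0.8). The part of RNA quality in the results was not tested.

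After 4 h of PTHrP, 1013 genes passed the threshold of an adjusted p of 0.05 (limma, Benjamini-Hochberg), which is 5.57% of the genes tested. Of these, 462 rose (2.54%) and 551 fell (3.03%). Most changes were small: the median size among called genes was 0.38 on the log2 scale, 814 of them (80.4%) were under 1.5-fold, and 38 (0.209% of genes tested) were at least 2-fold, 25 higher and 13 lower. Log2 changes throughout are of signal + 16, a constant that shrinks the changes of dim genes. In all 1013 called genes the 3 PTHrP arrays lay all above or all below the 3 control arrays, as they did in 22.4% of all genes tested (10.4% above and 12.0% below). The median change over all genes was -0.01 (log2).

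The variance was estimated over all 9 arrays, PTH arrays included. With the 6 control and PTHrP arrays alone, 455 genes (2.5%) passed. Leaving out control replicate 2 gave 560 calls, control replicate 3 gave 654, PTHrP replicate 1 gave 513 and PTH replicate 3 gave 671. A total of 435 genes (2.39%) passed in the full fit and in all 9 fits that each left out 1 array, 216 of them higher (1.19%) and 219 lower (1.2%). In what follows, calls that passed in all 9 are told apart from those lost in at least 1. Of 106 called genes named by rule that have further probe sets, 52 had another that passed in the same direction, and 39 did not pass with the mean of their probe sets. That mean weights all probe sets of a gene equally, also those below the dim level.

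**Figure D1:**
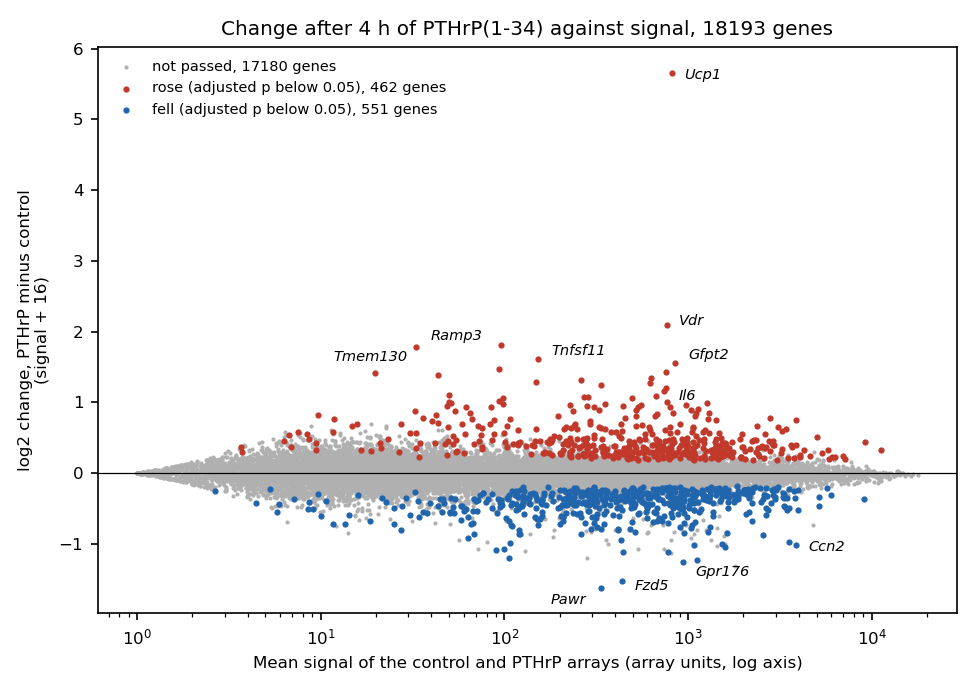
Each point is 1 of 18193 genes, with the mean signal of the 6 arrays on a log axis and the log2 change, PTHrP minus control, of signal + 16 on the other. Red points are the 462 genes that rose and blue points the 551 that fell; Ucp1 stands at 5.66 and 814 of the 1013 called genes changed by less than 1.5-fold.

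Ucp1, the uncoupling protein that lets brown and beige fat mitochondria release energy as heat, rose most. Its signal was 24.04, 11.8 and 14.2 in the control arrays and 1684, 1457 and 1716 in the PTHrP arrays (log2 change 5.66, SE 0.16, adjusted p = 5.61e-06, limma). The controls were all below the dim level and the treated arrays all far above it, so the size of the change depends on the added constant: it was 6.57 with 1 added and 4.38 with 64. Vdr, the nuclear receptor for vitamin D, went from 316, 261 and 269 to 1304, 1243 and 1189 (log2 change 2.09, SE 0.07, adjusted p = 1.76e-05). Every treated Vdr signal was several times every control signal. Ramp3, a partner protein that changes the ligand preference and traffic of some G-protein-coupled receptors, went from 43.8, 35.04 and 23.4 to 144, 170.0 and 161 (log2 change 1.82, SE 0.14, adjusted p = 0.000313). Tnfsf11, which encodes RANKL, went from 69.8, 61.7 and 68.9 to 287, 226 and 204 (log2 change 1.61, SE 0.12, adjusted p = 0.00025).

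The other genes among the 15 largest rises fell into several kinds of product. Gfpt2, which commits fructose 6-phosphate to the hexosamine pathway, went from 457, 403 and 414 to 1268, 1423 and 1151 (log2 change 1.55, SE 0.08, adjusted p = 6.71e-05). The retinol dehydrogenase gene Rdh10, for the first step from retinol to retinoic acid, went from 438, 429 and 343 to 1201, 1056 and 1067 (log2 change 1.43, SE 0.10, adjusted p = 0.000165). Has2, a hyaluronan synthase, went from 385, 329 and 352 to 915, 887 and 836 (log2 change 1.27, SE 0.06, adjusted p = 6.71e-05). Groups were apart in all of these, as the choice of the 15 required. Tnfaip6, whose product binds and modifies hyaluronan, changed by 1.25 (adjusted p = 0.000802), and Chst8, a sulfotransferase gene whose controls were below the dim level, by 1.38 (adjusted p = 0.000243). Of receptor genes, S1pr1, for sphingosine 1-phosphate, rose by 1.31 (adjusted p = 0.00012) and Ptgfr, for prostaglandin F2α, by 1.29 (adjusted p = 6.71e-05). Tmem100, a small membrane protein gene, rose by 1.46 (adjusted p = 6.71e-05), and Cxcl1, a neutrophil chemokine gene, by 1.35 (adjusted p = 0.000424). Tox3, which encodes a chromatin protein, went from 3.66, 5.55 and 8.40 to 75.98, 64.3 and 40.4 (log2 change 1.78, SE 0.17, adjusted p = 0.000917), and Tmem130 from 2.14, 3.41 and 3.45 to 17.8, 41.98 and 49.8 (log2 change 1.41, SE 0.21, adjusted p = 0.00738). Both were below the dim level in every control array, and their changes were 3.17 and 3.13 with 1 added and 0.82 and 0.57 with 64. All 15 passed in each of the 9 fits without 1 array and in the fit of 6 arrays, and the 7 with several probe sets also passed with the mean of those probe sets.

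**Figure D2:**
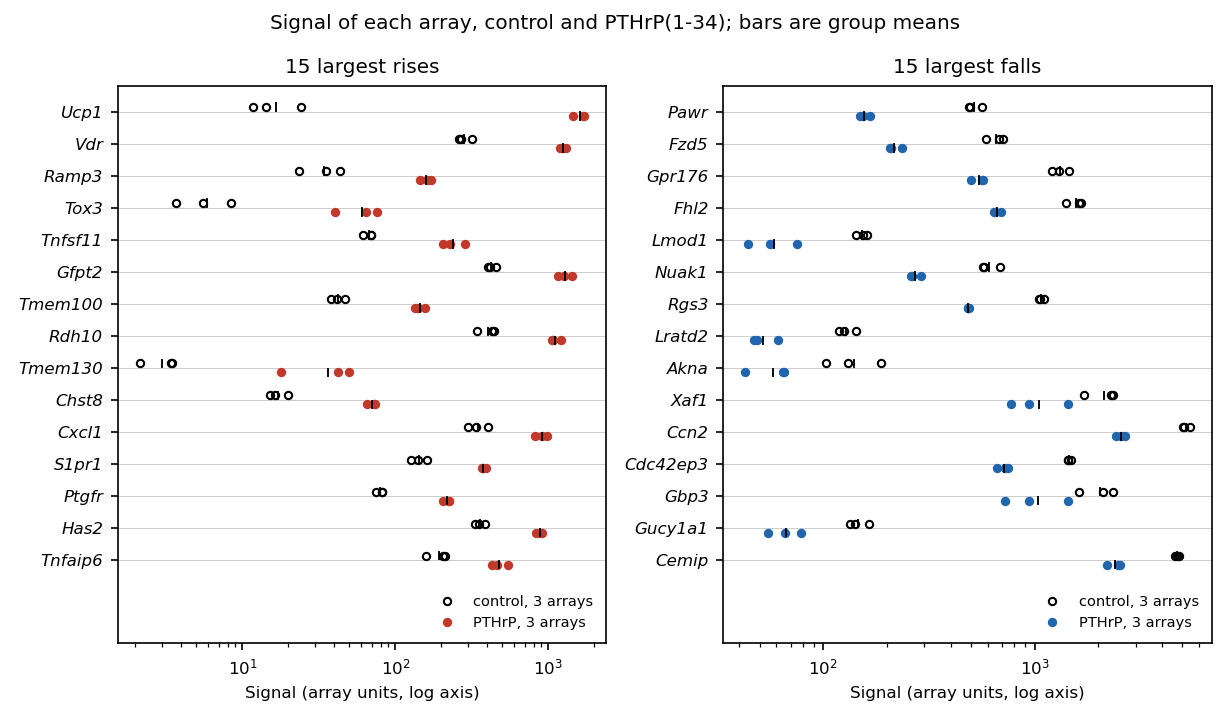
The signal of each control array (open circles) and each PTHrP array (filled circles) on a log axis, for the 15 genes with the largest rises (left) and the 15 with the largest falls (right); short bars are group means, n = 3 arrays per group. The 30 genes were chosen among those whose groups do not overlap, and their log2 changes run from 5.66 (Ucp1) to -1.62 (Pawr).

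Among the falls, Pawr, a pro-apoptotic regulator, came first, at 492, 563 and 488 in the control arrays and 154, 149 and 166 in the PTHrP arrays (log2 change -1.62, SE 0.07, adjusted p = 2.77e-05). The treated arrays lay close together and far below the controls, but averaging all its probe sets gave -0.78. Fzd5, a Wnt receptor, went from 678, 706 and 586 to 208, 235 and 208 (log2 change -1.53, SE 0.08, adjusted p = 6.71e-05). Gpr176, an orphan G-protein-coupled receptor, went from 1306, 1446 and 1210.2 to 497, 565 and 569 (log2 change -1.25, SE 0.08, adjusted p = 0.00012). Fhl2, a LIM-domain cofactor of actin-linked transcription, fell by 1.22 (adjusted p = 7.46e-05). Lmod1, an actin-nucleating protein of smooth muscle, fell by 1.20 (adjusted p = 0.00364). The kinase gene Nuak1 fell by 1.12 (adjusted p = 0.000191), and Lratd2 by 1.09 (adjusted p = 0.000424).

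Rgs3, which shortens G protein signals, went from 1048, 1112 and 1059.7 to 485, 488 and 484 (log2 change -1.12, SE 0.06, adjusted p = 6.71e-05), a change of -0.62 averaged over its probe sets. The matricellular gene Ccn2, also known as CTGF, went from 5057, 5415 and 5061 to 2433, 2559 and 2664 (log2 change -1.02, SE 0.05, adjusted p = 6.71e-05). Cdc42ep3, an effector of the small GTPase Cdc42, fell by 1.01 (adjusted p = 7.46e-05), and Gucy1a1, a subunit of the nitric oxide receptor guanylate cyclase, by 0.98 (adjusted p = 0.00235), the latter a change of -0.45 with the mean of its probe sets. Cemip, whose product takes part in breaking hyaluronan down, went from 4809, 4708 and 4616 to 2521, 2469 and 2189.9 (log2 change -0.97, SE 0.06, adjusted p = 0.000127).

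The calls of Akna, Xaf1 and Gbp3 were the least firm of the 15 falls. Akna, a gene for an AT-hook protein, went from 131, 103 and 187 to 64.8, 65.01 and 42.8 (log2 change -1.07, SE 0.24, adjusted p = 0.042), and the change was -0.51 (adjusted p = 0.066) with the mean of its probe sets. Its call was lost without control replicate 1 (adjusted p = 0.0955) or 3 (0.111), PTHrP replicate 1 (0.0969), 2 (0.0789) or 3 (0.114), and PTH replicate 1 (0.0707) or 2 (0.0539). Xaf1 and Gbp3, both induced by interferon, are described with the interferon-stimulated genes. These 3 were also the only members of the 15 that did not pass with the 6 arrays alone.

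Gene lists for 24 pathways and functions were then described member by member, with 651 of 702 listed symbols measured and 607 distinct genes among them. Of these genes, 66 rose, 78 fell and 463 did not pass, so that 23.7% were called against 5.57% of all genes. Among the 607, 144 were called and 81 of these passed in all 9 fits without 1 array, against 2.39% of all genes tested. The lists were chosen with earlier results of these data known, so their excess of calls over all genes is no test of the pathways. The listed genes are mostly well expressed, and among the 13042 genes at or above the dim level in either group the share called was 7.48% (3.4% higher and 4.08% lower).

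**Figure D3:**
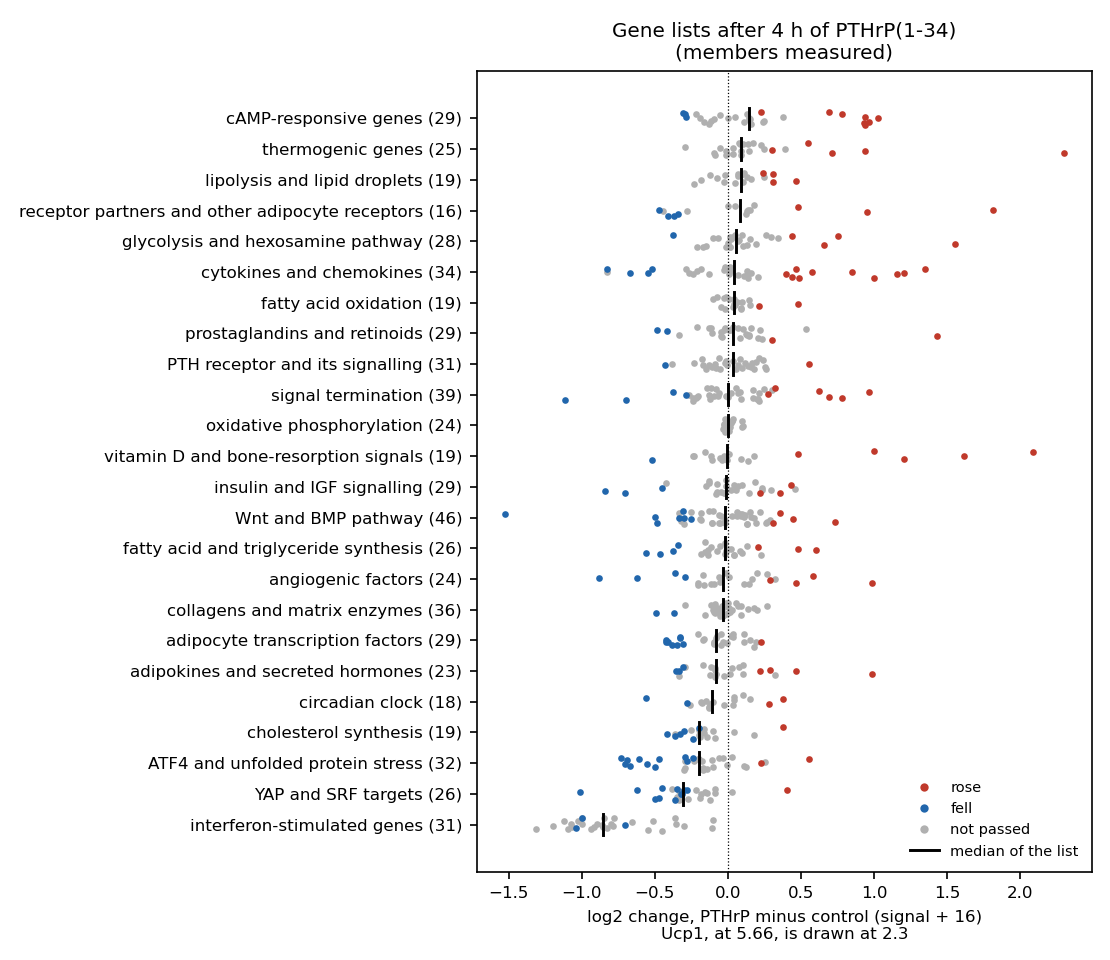
Each row is 1 gene list with the number of members measured, ordered by its median (black bar); each point is a member's log2 change, PTHrP minus control, of signal + 16. Red points rose, blue points fell and grey points did not pass; the lists of interferon-stimulated genes (median -0.85) and of YAP and SRF targets (-0.31) have the lowest medians, and Ucp1 is drawn at the right edge.

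The receptor itself fell modestly. Pth1r was at 332, 344 and 333 in the control arrays and 231, 253 and 250.4 in the PTHrP arrays (log2 change -0.43, SE 0.08, adjusted p = 0.017). All 3 treated arrays were below all controls, yet the call was lost without control replicate 1 (adjusted p = 0.0504), 2 (0.0637) or 3 (0.0535) or PTHrP replicate 1 (0.071). Of the 31 measured genes of the receptor and its signalling, 1 rose and 1 fell (6.45% called, near the share of all genes, with a median change of 0.03). The riser was Adcy3, an adenylyl cyclase that makes cyclic AMP, from 469, 470.1 and 459 to 718, 714 and 649 (log2 change 0.56, SE 0.05, adjusted p = 0.000889). Adcy7, another cyclase, had a change of -0.38 (adjusted p = 0.0754), and Prkar2b, a regulatory subunit of protein kinase A, one of 0.26 (adjusted p = 0.0752); neither passed. The ligand gene Pthlh was not analysed here.

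Genes that end or damp receptor signals changed in both directions: 6 of 39 rose and 4 fell (25.6% called, median 0.00), 4 of each in all 9 fits without 1 array. Phosphodiesterases, which break down cyclic AMP, were among the risers. Pde4d went from 419, 343 and 353 to 761, 747 and 704 (log2 change 0.96, SE 0.08, adjusted p = 0.000625) and Pde4b from 333, 352 and 302 to 552, 617 and 561 (log2 change 0.78, SE 0.07, adjusted p = 0.000644). Pde7b rose by 0.69 (adjusted p = 0.00367), and Arrb1, the arrestin gene whose product uncouples receptors from G proteins, by 0.62 (adjusted p = 0.00547). With the mean of their probe sets Pde4d, Pde4b and Pde7b changed by 0.44, 0.45 and 0.42. Falling members besides Rgs3 were Spry1, an inhibitor of growth factor signals (-0.70, adjusted p = 0.00263), the protein kinase A inhibitor gene Pkig (-0.38, adjusted p = 0.00389) and the receptor kinase gene Grk5 (-0.28, adjusted p = 0.00913, but 0.0782 averaged over its probe sets). Pde8a and Spry4 rose in the full fit and were lost in at least 1 fit without 1 array.

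Other receptors and receptor partners had 3 risers and 4 fallers among 16 measured (43.8% called, median 0.09), of which 2 and 1 passed in all 9 fits without 1 array. Ptger3, a prostaglandin E2 receptor that couples to the inhibitory G protein, went from 33.2, 24.7 and 25.7 to 85.1, 65.2 and 57.98 (log2 change 0.95, SE 0.13, adjusted p = 0.00544). Ptger4, a prostaglandin E2 receptor that couples to the stimulatory one, went from 376, 369 and 345 to 246, 264 and 264 (log2 change -0.47, SE 0.06, adjusted p = 0.00299). The pair moved in opposite directions, although Ptger3 did not pass with the mean of its probe sets (adjusted p = 0.0946). Its control mean, 27.86, was below the dim level, so the size of the Ptger3 change depends on the added constant. Ramp1 and Calcrl, which together form the receptor for calcitonin gene-related peptide, had changes of -0.37 and -0.41 and, like Mc2r (ACTH receptor, -0.34) and Ffar4 (fatty acid receptor, 0.48), passed in the full fit and lost the call in at least 1 fit without 1 array. Ramp1 and Calcrl also did not pass with the mean of their probe sets (adjusted p = 0.723 and 0.712). The further probe sets of Calcrl were dim (7.57 and 5.50 in controls), as was 1 of Ramp1 (22.7). Another of Ramp1, at 147.4 in controls, changed by -0.09. There were 2 falls without control replicate 1, control replicate 3 or PTHrP replicate 1.

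Genes known to respond to cyclic AMP held more rises than falls: 8 of 29 rose and 3 fell (37.9% called, median change 0.14), and 7 of the rises but none of the falls passed in all 9 fits without 1 array. Crem, whose short isoforms repress cyclic AMP-responsive promoters, went from 201, 215 and 196 to 445, 409.5 and 367 (log2 change 0.94, SE 0.07, adjusted p = 0.000295). Nr4a3, an orphan nuclear receptor gene, went from 52.2, 48.2 and 58.3 to 136, 114 and 99.1 (log2 change 0.93, SE 0.12, adjusted p = 0.00346). Gem, a small GTPase of the cytoskeleton and calcium channels, went from 51.7, 56.7 and 60.1 to 134, 138 and 121 (log2 change 1.02, SE 0.09, adjusted p = 0.000669). Groups did not overlap in any of these, as in every called gene. Crispld2 rose by 0.69 (adjusted p = 0.000191), and Cebpb, an early adipogenic factor, by 0.23, a call that was lost in 8 of the 9 fits without 1 array. With the mean of their probe sets, Crem changed by 0.31 (adjusted p = 0.0257) and Nr4a3 by 0.28 (adjusted p = 0.0523).

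The 3 falls in that list were immediate-early and stress genes. Egr1 fell by 0.28 (adjusted p = 0.0254), Atf3 by 0.29 (adjusted p = 0.0231) and Btg2 by 0.31 (adjusted p = 0.0446). No such fall was called without control replicate 2, PTHrP replicate 1, PTHrP replicate 2 or PTH replicate 3, with 1 without control replicate 1 or 3. Sik1, a kinase that restrains CREB coactivators, was at 35.3, 31.1 and 34.4 in the control arrays and 49.5, 60.04 and 37.3 in the PTHrP arrays (log2 change 0.38, adjusted p = 0.169) and did not pass. Fosb and Junb did not pass either (0.24 and 0.24).

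The sequences before the transcription starts are shown for 4 of the genes that rose, because they carry the short motif that CREB is known to bind. They are the 250 bases upstream of a RefSeq transcript start (build GRCm38.p6), written 5′ to 3′ on the strand of the gene; capitals mark TGACG, the short core of the cyclic AMP response element, or its complement CGTCA. The window of Ucp1 (chr8:83290098-83290347, plus strand) holds 1 core 147 bases before the start. That of Dio2 (chr12:90739039-90739288, minus strand) holds the full palindrome TGACGTCA, in which a core on each strand overlap, 95 bases before the start. Nr4a3 (chr4:48045055-48045304, plus strand) has 4 cores, 231, 213, 205 and 147 bases before the start, and Cxcl1 (chr5:90890995-90891244, plus strand) has them 215 and 194 bases before it.
Ucp1: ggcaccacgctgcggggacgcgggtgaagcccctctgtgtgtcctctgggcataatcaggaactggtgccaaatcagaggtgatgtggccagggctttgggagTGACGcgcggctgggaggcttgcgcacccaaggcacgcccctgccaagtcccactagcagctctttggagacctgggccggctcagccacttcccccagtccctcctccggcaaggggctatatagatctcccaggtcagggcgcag
Dio2: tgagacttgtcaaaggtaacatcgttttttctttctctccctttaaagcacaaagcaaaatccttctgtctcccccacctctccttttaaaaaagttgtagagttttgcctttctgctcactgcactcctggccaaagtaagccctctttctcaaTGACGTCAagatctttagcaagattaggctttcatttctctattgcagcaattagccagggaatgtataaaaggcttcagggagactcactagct
Nr4a3: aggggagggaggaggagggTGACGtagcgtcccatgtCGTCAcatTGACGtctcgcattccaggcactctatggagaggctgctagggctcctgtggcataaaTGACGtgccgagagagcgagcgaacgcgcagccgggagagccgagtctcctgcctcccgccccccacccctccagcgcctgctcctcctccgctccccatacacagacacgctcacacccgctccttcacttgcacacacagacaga
Cxcl1: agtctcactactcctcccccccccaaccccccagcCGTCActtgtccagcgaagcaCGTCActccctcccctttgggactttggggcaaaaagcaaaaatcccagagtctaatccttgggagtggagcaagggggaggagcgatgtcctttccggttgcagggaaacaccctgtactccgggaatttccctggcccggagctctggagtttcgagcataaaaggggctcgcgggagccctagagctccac

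Over all 18009 upstream windows of 14368 genes on the array, searched on both strands, 22.7% held the core and 2.13% the full element. In the 441 windows of 352 genes that rose the shares were 24% and 1.13%, and in the 579 windows of 429 genes that fell 20% and 2.42%. The list of cyclic AMP-responsive genes, many of which are known for such elements, had the core in 20 of 32 windows and the full element in 3. Of the 15 genes with the largest rises, 11 had a window, none of these 11 held the full element, and 2, Ucp1 and Cxcl1, held the core. Called genes that fell held the full element too, such as Btg2 and Ppp1r15a, 166 and 12 bases before the start. A match is a description of these letters, and more distant enhancers lie outside the windows.

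Of the thermogenic genes, Ucp1 included, 5 of 25 rose (20% called, median 0.09), none was lower even at an unadjusted p of 0.05 (limma), and Ucp1 and Dio2 alone passed in all 9 fits without 1 array. Dio2, the deiodinase that activates thyroid hormone, went from 42.7, 34.3 and 34.8 to 84.2, 87.4 and 86.4 (log2 change 0.94, SE 0.07, adjusted p = 0.000238), a change of 0.38 (adjusted p = 0.0437) averaged over its probe sets. The thermogenic coactivator gene Ppargc1a was at 244, 210.3 and 236 in the control arrays and 277, 245 and 246 in the PTHrP arrays (log2 change 0.14, adjusted p = 0.355). Its groups were barely apart and the difference did not pass. Prdm16, the coregulator of beige and brown fate, did not pass (0.22, adjusted p = 0.0509), nor did Cited1 (0.39), Plin5 (0.25) and Fgf21 (-0.29). The fatty acid elongase gene Elovl3 (0.55), the proton channel gene Otop1 (0.71) and Letmd1 (0.30) rose in the full fit, and each was lost in at least 7 of the 9 fits without 1 array. There were 4 thermogenic risers without control replicate 1, 3 without control replicate 2 or PTH replicate 1, and 2 without any 1 of the other 6 arrays.

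None of 24 oxidative phosphorylation genes passed in limma, at the adjusted threshold or at an unadjusted p of 0.05, and their changes lay between -0.04 and 0.10. Of fatty acid oxidation genes, 2 of 19 rose (10.5% called, against 5.57% of all genes and 7.48% of those at or above the dim level in either group). Cpt1a, the gate of fatty acid entry into mitochondria, went from 417, 454 and 469.9 to 639, 656 and 597 (log2 change 0.48, SE 0.06, adjusted p = 0.00334). Cpt2 changed by 0.21, lost in 8 of 9 fits without 1 array. In lipolysis and lipid droplets, 4 of 19 rose (21.1% called, median 0.09), and 3 were lower at an unadjusted p under 0.05 with none called (limma). Hilpda, an inhibitor of adipose triglyceride lipase, went from 479.8, 427 and 469 to 648, 669 and 600.1 (log2 change 0.47, SE 0.07, adjusted p = 0.0102). Abhd5, the coactivator of that lipase (0.31), and the droplet genes Cidec (0.31) and Fitm2 (0.24) passed in the full fit, and Hilpda alone was called without control replicate 2, PTHrP replicate 1, PTHrP replicate 2 or PTH replicate 3. There were 2 risers without control replicate 1 or 3 or PTH replicate 2.

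In fatty acid and triglyceride synthesis 3 of 26 genes rose and 4 fell (26.9% called, median -0.02). The risers were genes of triglyceride assembly and glyceroneogenesis, and of the fallers Mlxipl alone passed in all 9 fits without 1 array. Dgat1, which adds the last acyl chain of triglyceride, went from 2730.2, 2532 and 2434 to 3956, 3868 and 3847 (log2 change 0.60, SE 0.06, adjusted p = 0.000901), a change of 0.28 with the mean of its probe sets. Pck1, the glyceroneogenic carboxykinase gene, went from 1628, 1563 and 1571 to 2335, 2196 and 2135 (log2 change 0.48, SE 0.05, adjusted p = 0.00116), but did not pass with the mean of its probe sets (adjusted p = 0.408). Its further probe sets were much dimmer, at 59.7 and 13.1 in controls. Mlxipl, which encodes the carbohydrate-responsive factor ChREBP, went from 725, 737 and 644 to 533, 483 and 492 (log2 change -0.47, SE 0.07, adjusted p = 0.00632). Those calls held in all 9 fits. Gpam rose (0.20), and Acacb (-0.56), Elovl6 (-0.38) and Thrsp (-0.34) fell in the full fit; each was lost in some fits without 1 array, Gpam in all 9. Without control replicate 1 or control replicate 3 the fall of Mlxipl alone was called, and there were 2 falls without control replicate 2, PTHrP replicate 1 or PTHrP replicate 3.

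Cholesterol synthesis genes leaned lower: 6 of 19 fell and 1 rose (36.8% called, median -0.20). Fdft1, squalene synthase, went from 2667, 2531 and 2488 to 2018, 1918 and 1797 (log2 change -0.42, SE 0.06, adjusted p = 0.00481). Fdps, farnesyl diphosphate synthase, fell by 0.36 (adjusted p = 0.0116) and Cyp51, a sterol demethylase, by 0.33 (adjusted p = 0.00779). These 3 were called in all 9 fits without 1 array, but with the mean of their probe sets Fdft1 and Fdps did not pass (adjusted p = 0.398 and 0.342). The other probe set of Fdps was dim, at 2.31 in controls and 3.93 with PTHrP. Fdft1 had dim ones too (15.8 and 12.5 in controls), while its other bright one changed by -0.43 (adjusted p = 0.00628, limma). Idi1, Lss and Sc5d fell and Hsd17b7 rose in the full fit; there were 3 falls without any 1 of the arrays, except 4 without control replicate 2 or PTHrP replicate 2.

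Bone-resorption and vitamin D genes held some of the largest rises: 5 of 19 rose and 1 fell (31.6% called, median -0.01), and all 6 passed in all 9 fits without 1 array. Besides Vdr and Tnfsf11 these were Il6, which went from 456, 473 and 432 to 1095, 1071 and 1035 (log2 change 1.21, SE 0.06, adjusted p = 6.71e-05), Il11, from 31.1, 27.8 and 25.1 to 70.7, 73.4 and 71.2 (log2 change 0.999, SE 0.07, adjusted p = 0.000177), and Alpl, tissue-nonspecific alkaline phosphatase, from 248, 204 and 233 to 309.9, 341 and 321 (log2 change 0.48, SE 0.08, adjusted p = 0.0105). Both interleukins act through gp130 receptors and favour osteoclast formation. The control mean of Il11, 27.98, was below the dim level, so the size of its change depends on the added constant. In each of these genes the groups were apart, as in every called gene. Csf1, the macrophage growth factor that acts with RANKL on osteoclasts, went the other way, from 3963, 4205 and 3973 to 2735, 2892 and 2812 (log2 change -0.52, SE 0.05, adjusted p = 0.000669). Tnfrsf11b, which encodes the RANKL decoy osteoprotegerin, was at 64.3, 114 and 71.6 in the control arrays and 69.8, 75.9 and 55.1 in the PTHrP arrays (log2 change -0.24, adjusted p = 0.552). Those groups overlapped.

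Cytokine and chemokine genes changed in 14 of 34 cases (41.2% called, median 0.04), 10 upward and 4 downward, and 9 and 3 of these passed in all 9 fits without 1 array. Il33, an alarmin cytokine that acts on innate lymphoid cells, went from 450.2, 452 and 449 to 1156, 1027 and 901 (log2 change 1.16, SE 0.09, adjusted p = 0.00025). Il1rn, the secreted antagonist of interleukin 1, went from 663, 639 and 678 to 336, 399 and 359.6 (log2 change -0.83, SE 0.08, adjusted p = 0.000762). The interleukin 1 receptor gene Il1r1 rose by 0.39 (adjusted p = 0.00892, but 0.536 averaged over its probe sets). Its other probe set was dim, at 6.84 in controls and 7.06 with PTHrP. Chemokine genes moved both ways: Cxcl5 (0.85), Ccl9 (0.58) and Cxcl14 (0.44) rose along with Cxcl1, and the monocyte chemokine genes Ccl2 (-0.67) and Ccl7 (-0.55) fell. Ccl2 went from 802, 919 and 951 to 519.6, 496 and 651 (adjusted p = 0.00915), while the call of Ccl7 was lost in 5 of the 9 fits. Lcn2, lipocalin 2, rose by 0.47 (adjusted p = 0.00908), and Clcf1, a gp130 cytokine, by 0.49, lost in 7 of the 9 fits. Macrophage markers summed to 1274 to 1365 units in controls and 1311 to 1416 with PTHrP, and none of 12 passed in limma, with 1 higher and 1 lower at an unadjusted p under 0.05. In RNA from whole cultures, a change in the number of cells of a type and a change in RNA per cell cannot be told apart.

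Genes of the ATF4 and unfolded protein stress response were lower: 11 of 32 fell and 2 rose (40.6% called, median -0.20), and 8 of the falls passed in all 9 fits without 1 array. Ddit3, which encodes the stress factor CHOP, went from 1296, 1373 and 1262 to 793, 769.6 and 779 (log2 change -0.74, SE 0.05, adjusted p = 0.000212). Trib3, a pseudokinase induced by ATF4 and CHOP, went from 1119, 1281 and 1157 to 704, 703 and 753 (log2 change -0.70, SE 0.06, adjusted p = 0.000639). Chac1, a glutathione-degrading enzyme gene, went from 799, 890.4 and 829 to 490.3, 525 and 548 (log2 change -0.67, SE 0.06, adjusted p = 0.000889). In each, the treated arrays lay in a narrow band well below the controls. The amino acid transporter genes Slc7a1 (-0.69) and Slc6a9 (-0.61), Herpud1 of endoplasmic reticulum degradation (-0.56), mitochondrial folate enzyme gene Mthfd2 (-0.50) and Nupr1 (-0.47) fell in all 9 fits too. With the mean of their probe sets Slc7a1 and Slc6a9 changed by -0.43 and -0.34. Atf4 itself went from 3100, 3147 and 3095 to 2558, 2725 and 2634 (log2 change -0.24, SE 0.05, adjusted p = 0.0318), a call lost in 7 of 9 fits and with the mean of its probe sets (adjusted p = 0.642). Of its further probe sets, 1 was dim (1.59 in controls) and the other changed by -0.21 (adjusted p = 0.0744, limma). Ppp1r15a (-0.28), like Atf3, fell in the full fit and was lost in others. The risers were Ddit4, an inhibitor of mTORC1 signalling, from 2306, 2022 and 2044 to 3042, 3226 and 3084 (log2 change 0.55, SE 0.06, adjusted p = 0.00235), and Xbp1 (0.22), the latter lost in all 9 fits without 1 array.

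Interferon-stimulated genes had the lowest median of any list, -0.85, but 3 of 31 members passed (9.68%, against 5.57% of all genes): Stat2, Xaf1 and Gbp3 fell. All 31 had a lower mean with PTHrP and 27 had an unadjusted p under 0.05 (limma). Of all 18193 genes tested, 9366 had a negative change and 3327 an unadjusted p under 0.05. Gbp3, an antiviral guanylate-binding protein gene, went from 1612, 2359 and 2113 to 726, 941 and 1430.5 (log2 change -1.001, SE 0.24, adjusted p = 0.0485). Xaf1, a pro-apoptotic interferon target, went from 1713, 2343 and 2303 to 769, 939 and 1436 (log2 change -1.04, SE 0.22, adjusted p = 0.0326), and Stat2, the transcription factor of the type I interferon response, from 274, 369 and 385 to 174, 191 and 246 (log2 change -0.71, SE 0.16, adjusted p = 0.0396). Ifit3, a member that did not pass, went from 1401, 3208 and 3006 to 613, 826 and 1690.4 (log2 change -1.31, adjusted p = 0.119). Averaged over its probe sets Xaf1 changed by -0.62 (adjusted p = 0.0271), and in that fit the adjusted p of Gbp3, which has 1 probe set, was 0.0523. In these genes PTHrP replicate 3 was the highest of the treated arrays and control replicate 1 the lowest of the controls.

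That pattern ran through the list. PTHrP replicate 3 was the highest treated array in 30 of 31 genes, and control replicate 1 the lowest control in 30. PTHrP replicates 1 and 2 were both below all controls in 30 genes, and all 3 treated arrays were so in 13, where 12.0% of all genes tested had all 3 PTHrP arrays below the controls. The median of the 31 genes relative to their control mean was -0.45, 0.23 and 0.20 in control replicates 1 to 3 and -1.28, -0.99 and -0.36 in PTHrP replicates 1 to 3. In PTH replicates 1 to 3 it was -1.13, -1.08 and -1.21. Without PTHrP replicate 3, 21 members fell; without control replicate 1, 9 fell; and without any 1 of the other 7 arrays, none did. The falls of Gbp3, Xaf1 and Stat2 were thus lost without control replicate 2 (adjusted p = 0.143, 0.107 and 0.123), control replicate 3 (0.138, 0.106 and 0.124), PTHrP replicate 1 (0.129, 0.0948 and 0.136), PTHrP replicate 2 (0.124, 0.0959 and 0.111) or any 1 of the PTH arrays (between 0.0558 and 0.0846), and that of Gbp3 also without control replicate 1 (0.0541).

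**Figure D4:**
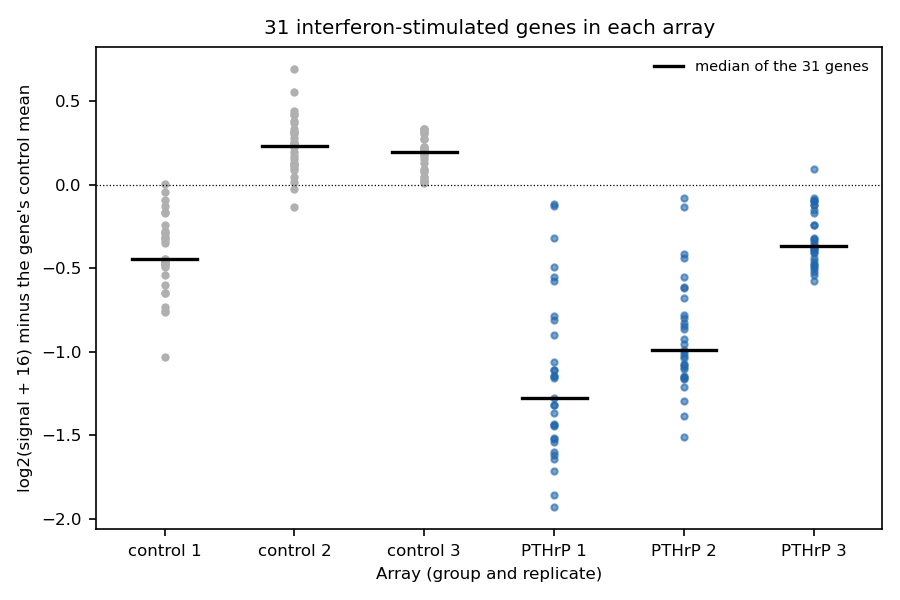
Each point is 1 of 31 interferon-stimulated genes in 1 array, as log2(signal + 16) minus the gene's mean over the 3 controls; black bars are the medians of the 31 genes. Control replicate 1 (median -0.45) lies below the other controls and PTHrP replicate 3 (-0.36) above the other treated arrays, at about the level of control replicate 1.

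Sequence is shown for Gbp3 and for Ankrd1 of the next list. In the 250 bases before a transcript start of Gbp3 (chr3:142559794-142560043, plus strand, GRCm38.p6, RefSeq), capitals mark 2 overlapping matches to the core of the interferon-stimulated response element, which is GAAA followed after 2 free bases by GAAA, on the opposite strand, 45 and 39 bases before the start. In that of Ankrd1 (chr19:36119845-36120094, minus strand), capitals mark GGAATG, the core bound by TEAD factors, 210 and 123 bases before the start.
Gbp3: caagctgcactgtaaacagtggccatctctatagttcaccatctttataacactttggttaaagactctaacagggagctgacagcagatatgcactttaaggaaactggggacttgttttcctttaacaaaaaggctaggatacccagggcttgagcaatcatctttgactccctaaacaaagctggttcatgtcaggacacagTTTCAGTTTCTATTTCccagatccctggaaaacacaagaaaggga
Ankrd1: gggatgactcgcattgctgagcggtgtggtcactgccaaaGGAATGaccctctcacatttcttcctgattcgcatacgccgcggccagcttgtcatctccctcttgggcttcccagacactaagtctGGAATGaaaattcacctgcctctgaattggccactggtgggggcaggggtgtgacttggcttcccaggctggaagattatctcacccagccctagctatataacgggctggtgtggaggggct

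Searched on both strands, the interferon element was in 14 of 30 windows of the interferon list against 2.62% of all windows, in 4.54% of windows of genes that rose and in 3.8% of those that fell. A second Gbp3 window held none. The TEAD core was in 11 of 20 windows of the YAP and SRF list against 11.5% of all windows, and in 9.3% and 13.8% of windows of genes that rose and fell. These lists hold genes known as targets of those factors.

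Targets of YAP and SRF, transcriptional regulators that respond to the actin cytoskeleton and cell tension, were lower: 11 of 26 fell and 1 rose (46.2% called, median -0.31), and 6 of the falls passed in all 9 fits without 1 array. After Ccn2, the next were Ankrd1, which went from 306, 317 and 336 to 178, 206 and 224 (log2 change -0.62, SE 0.08, adjusted p = 0.0039), and Ccn1, a matricellular relative of Ccn2, from 4080.2, 4439.5 and 3977 to 2705, 3225 and 2925 (log2 change -0.50, SE 0.07, adjusted p = 0.0065). Thbs1, thrombospondin 1, went from 9798, 10120 and 10497 to 7988, 7924 and 7719.7 (log2 change -0.36, SE 0.05, adjusted p = 0.00344). Groups were separate in all of these, as in every called gene. Of contractile and adhesion genes, Myl9 (-0.35) and Vcl (-0.30) fell in all 9 fits, though Vcl did not pass with the mean of its probe sets (adjusted p = 0.201). Tpm1 (-0.31), Actg2 (-0.28), Axl (-0.32), Ajuba (-0.45) and Crim1 (-0.48) fell in the full fit, and Tgfbi rose (0.41); each was lost in at least 1 of the 9. The further probe sets of Tgfbi, at 234.4, 430.9 and 424.2 in controls, changed by 0.24, 0.21 and 0.22, and none of them passed. There were 7 falls without control replicate 2 or PTH replicate 3 and 6 without PTHrP replicate 1. The sum of the smooth muscle and pericyte markers was 22710 to 23370 units in controls and 20750 to 21970 with PTHrP, with all 10 above the dim level and 1, Myh11, falling. The 10 skeletal muscle markers, of which 3 were above the dim level and Acta1 fell (-0.42, adjusted p = 0.0229, lost in 3 of the 9 fits), summed to 622.8 to 756.6 units in controls and 527.6 to 610.6 with PTHrP. The 11 proliferation markers, all above the dim level, summed to 10320 to 10660 and 9171 to 10230 units, and none passed in limma, with 0 higher and 2 lower at an unadjusted p under 0.05. None of these sums overlapped between the groups, where 12.0% of all single genes had the 3 PTHrP arrays all below the controls. The sums of the adipocyte, preadipocyte and fibroblast, macrophage, endothelial, epithelial, lymphocyte and mesothelial markers did overlap. The part of the marker sums in the falls was not tested.

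Of extracellular matrix genes, 2 of 36 fell (5.56% called, near the 5.57% of all genes). Both were proteoglycan-cleaving proteases: Adamts5 went from 2973, 3309.7 and 3075 to 2325, 2278 and 2036 (log2 change -0.49, SE 0.06, adjusted p = 0.00426) and Adamts1 from 2912, 3022 and 2764 to 2249, 2217 and 2253 (log2 change -0.37, SE 0.05, adjusted p = 0.00391). No member rose in limma by its brightest probe set, and 2 were higher at an unadjusted p under 0.05. The brightest probe set of the matrix protease gene Adamts4 changed by 0.27. A further one rose from a mean of 129.9 to 206.9 (0.61, adjusted p = 0.00589, limma over probe sets). The preadipocyte and fibroblast markers, which summed to 45390 to 46240 units in controls and 42450 to 45790 with PTHrP, had 1 fall, Pdgfrb, among 11.

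In the Wnt and BMP pathways 4 of 46 genes rose and 7 fell (23.9% called, median -0.02), of which 3 and 3 passed in all 9 fits without 1 array. Bambi, a decoy receptor for BMP and TGF-β signals, went from 208, 224 and 213 to 378, 366 and 359 (log2 change 0.73, SE 0.05, adjusted p = 0.000175). Frizzled receptor genes moved apart: Fzd1 rose by 0.35 (adjusted p = 0.00746), while Fzd2 went from 1042, 1092 and 973 to 675, 789 and 744 (log2 change -0.49, SE 0.07, adjusted p = 0.00738), next to the larger fall of Fzd5. Fzd8 also fell (-0.25), in 6 of the 9 fits without 1 array. Wnt5a, a noncanonical Wnt ligand, rose by 0.31 (adjusted p = 0.00566, but 0.0933 averaged over its probe sets). Id4, an inhibitor of helix-loop-helix factors, went from 729, 703 and 678 to 515, 485 and 478 (log2 change -0.50, SE 0.05, adjusted p = 0.00145). The coreceptor Lrp6 (0.45) rose and Sfrp2 (-0.30), Inhba (-0.31) and Inhbb (-0.34) fell in the full fit but not in every other. Falls numbered 3 without PTHrP replicate 1 and 4 without control replicate 3.

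Adipocyte transcription factor genes leaned lower, with 8 of 29 falling and 1 rising (31% called, median -0.08), and 4 of the falls held in all 9 fits without 1 array. Most of the fallers were Krüppel-like factors. Klf6 went from 1505, 1585 and 1620.3 to 1104, 1179 and 1209 (log2 change -0.43, SE 0.05, adjusted p = 0.00319; -0.27 with the mean of its probe sets) and Klf3 from 1783, 2048 and 1842 to 1418, 1434 and 1403 (log2 change -0.41, SE 0.06, adjusted p = 0.00811). Klf13 (-0.33) and Zfp467, a zinc finger gene that promotes adipogenesis (-0.33), were the other pair that held, neither of which passed with the mean of its probe sets (adjusted p = 0.0588 and 0.0623). Of the further probe sets of Klf13, 1 was dim (14.4 in controls) and the other changed by -0.41 (adjusted p = 0.0151, limma). Those of Zfp467 were not dim and changed by -0.11 and -0.19. Klf15 (-0.42), Klf2 (-0.38), Klf4 (-0.31) and Ebf1 (-0.35) fell in the full fit. The number of falls was 5 without control replicate 1 or PTHrP replicate 1 and 4 without control replicate 2.

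Among adipokines and other secreted hormones 4 of 23 rose and 3 fell (30.4% called). Apln, which encodes the vasoactive peptide apelin, went from 970.5, 837 and 731 to 1793, 1682 and 1565 (log2 change 0.98, SE 0.11, adjusted p = 0.00164). Apln and Lcn2 were the members that passed in all 9 fits; Nrg4 (0.29) and Igf1 (0.22) rose and Metrnl (-0.36) fell in the full fit, beside Inhba and Inhbb. No fall was called without PTHrP replicate 1, and 1 was without control replicate 2. There were 2 rises without any 1 array, except 3 without PTHrP replicate 2 or 3. Angiogenic factors, a list that shares Apln and Thbs1, had 4 risers and 4 fallers among 24 (33.3% called), 2 of each in all 9 fits. Adm, which encodes the vasodilator adrenomedullin, went from 3243, 3671 and 3031 to 1748, 1835 and 1779 (log2 change -0.88, SE 0.08, adjusted p = 0.000639). Fgf10, a growth factor for preadipocytes, went from 307, 333 and 328 to 509, 474 and 486 (log2 change 0.58, SE 0.05, adjusted p = 0.000704). Hgf (0.46) and Nos3 (0.28) rose and Angpt1 (-0.29) and Angpt2 (-0.62) fell in the full fit, each lost in at least 1 other. There were 2 rises without PTHrP replicate 1 or 2 or PTH replicate 3, and 2 falls without control replicate 2, control replicate 3 or PTHrP replicate 1. Vegfa did not pass (0.32, adjusted p = 0.101).

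In the list of glycolysis and hexosamine pathway genes, 4 of 28 rose and 1 fell (17.9% called, median 0.06), and the 4 rises held in all 9 fits without 1 array. Slc16a1, the monocarboxylate transporter MCT1, went from 2931, 2811 and 2853 to 5077, 4663 and 4749 (log2 change 0.75, SE 0.05, adjusted p = 0.000175). Uap1, which makes the hexosamine end product UDP-N-acetylglucosamine, went from 1846, 1887 and 1797 to 2938, 2884 and 2943 (log2 change 0.66, SE 0.04, adjusted p = 0.000136). The hexosamine kinase gene Nagk (-0.21, adjusted p = 0.0601) and the lactate transporter gene Slc16a3 (0.34, adjusted p = 0.191) did not pass. Pfkp, a phosphofructokinase gene, rose by 0.44 (adjusted p = 0.00373). The insulin-responsive glucose transporter gene Slc2a4, for GLUT4, went from 1024, 891 and 974 to 789, 711 and 712 (log2 change -0.38, SE 0.07, adjusted p = 0.0144), lost without control replicate 3 (adjusted p = 0.0515) or PTHrP replicate 2 (0.0514). In insulin and IGF signalling 3 of 29 rose and 3 fell (20.7% called). Tbc1d4, the Akt substrate AS160 that governs GLUT4 traffic, went from 1205, 1198 and 1279.8 to 712, 657 and 664 (log2 change -0.84, SE 0.10, adjusted p = 0.0028). Grb14, an adaptor that inhibits the insulin receptor, went from 921, 897 and 938 to 664, 640.2 and 698 (log2 change -0.45, SE 0.05, adjusted p = 0.00158), but did not pass with the mean of its probe sets (adjusted p = 0.0578). Irs2 (0.43) and Socs3 (0.36) rose in the full fit; no rise in this list was called without PTHrP replicate 1 or 2, and 1 was without PTH replicate 2 or any 1 of the controls.

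Of clock genes, 2 of 18 rose and 2 fell (22.2% called, median -0.11). Per3 went from 294, 286 and 268 to 206, 179 and 175 (log2 change -0.56, SE 0.07, adjusted p = 0.0028) and Cry1 from 218, 229 and 221 to 277, 312 and 292 (log2 change 0.37, SE 0.06, adjusted p = 0.0128). The groups were apart in both, as in every called gene. Per3 did not pass with the mean of its probe sets (adjusted p = 0.374). Bhlhe40 (0.28) rose and Nr1d2 (-0.28) fell in the full fit; a single rise was called without any 1 of the arrays except control replicate 1, where there were 2. A single fall was called without control replicate 2, PTHrP replicate 2 or 3, or PTH replicate 3. In prostaglandin and retinoid metabolism 2 of 29 rose and 2 fell (13.8% called, against 5.57% of all genes). Next to Rdh10, Pla2g4a, the phospholipase that releases arachidonic acid, rose by 0.30 (adjusted p = 0.0144), lost without control replicate 1 (adjusted p = 0.0511) or 2 (0.0551). Dhrs3, a reductase that returns retinaldehyde to retinol, went from 1033, 1068 and 981 to 679, 706 and 810.2 (log2 change -0.48, SE 0.08, adjusted p = 0.0145), lost without control replicate 2 (adjusted p = 0.0578), PTHrP replicate 1 (0.0596) or PTHrP replicate 2 (0.0522). Aldh1a3, which makes retinoic acid from retinaldehyde, fell by 0.42 (adjusted p = 0.00527, but 0.567 averaged over its probe sets).

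The response to PTHrP(1-34) was then set directly against that to PTH(1-34), the related peptide given at the same dose and for the same time. No gene of 18193 passed at an adjusted p of 0.05 in limma, and 730 (4.01%) had an unadjusted p under 0.05. For Ucp1 the PTH arrays were at 1520.3, 1789 and 2133, a difference, PTHrP minus PTH, of -0.15, 95% interval -0.52 to 0.22. For Vdr they were at 1253, 1225 and 1188 (0.03, 95% interval -0.14 to 0.20), and for Tnfsf11 at 231, 278 and 268 (-0.12, 95% interval -0.39 to 0.16). The signals of the peptides overlapped in each of these genes, and the intervals give the size of difference that these arrays leave possible. Over the 15 largest rises the differences lay between -0.15 and 1.18 (median 0.03), and 14 of the 15 intervals held zero. The exception was Tmem130, at 5.83, 6.46 and 6.83 with PTH against 17.8, 41.98 and 49.8 with PTHrP (1.18, 95% interval 0.69 to 1.66, adjusted p = 0.784). Of the 15 largest falls, 12 intervals held zero and those of Pawr (-0.20, 95% interval -0.35 to -0.04), Akna (-0.56, 95% interval -1.11 to -0.00) and Ccn2 (-0.13, 95% interval -0.25 to -0.00) did not.

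Of the 165 called genes named by rule, 157 intervals held zero and 8 did not, and none of the 165 differences passed over all genes. The smallest p values between the peptides belonged to Cyp2c50, Spata18, Rnf186, Slc6a16 and Il10ra. Cyp2c50 was at 9.96, 9.84 and 9.69 with PTH and 20.6, 19.6 and 22.02 with PTHrP (0.51, 95% interval 0.39 to 0.63, adjusted p = 0.187). All 5 genes were below the dim level in each group. A difference that misses the threshold does not show that the peptides act alike.

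**Figure D5:**
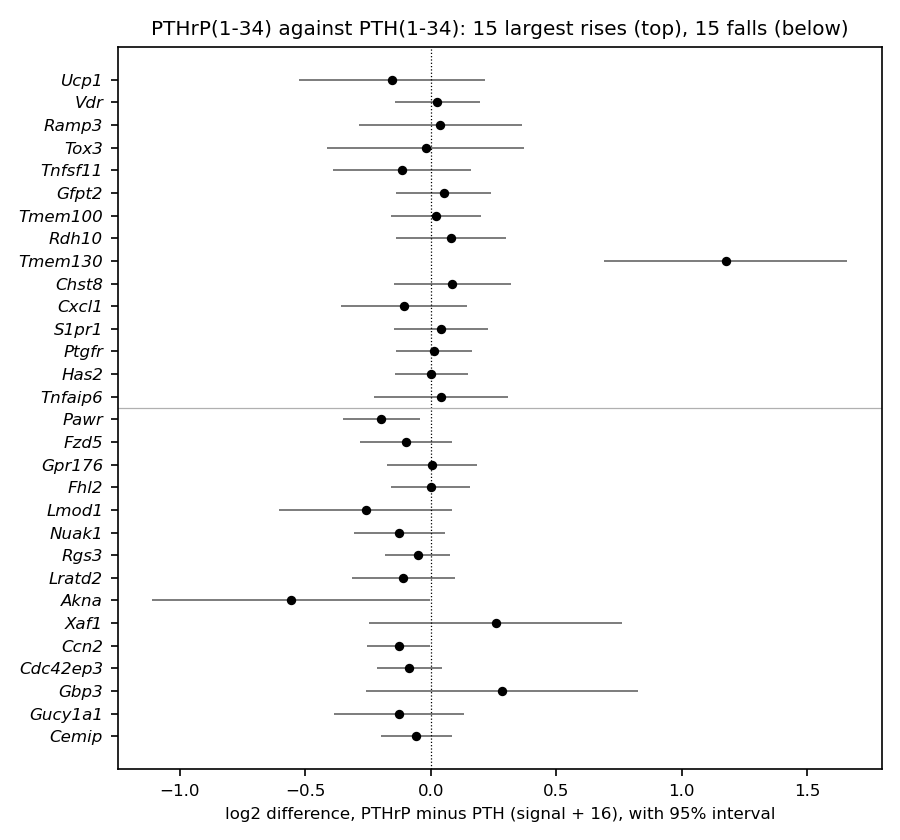
The log2 difference, PTHrP minus PTH, of signal + 16 for the 15 genes with the largest rises against control (top) and the 15 with the largest falls (below the line); bars are 95% intervals from the fit of 9 arrays. The intervals of 14 of the 15 rises and 12 of the 15 falls hold zero; those of Tmem130, at 1.18, and of Pawr, Akna and Ccn2 do not.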

How the data were processed

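The deposited values were probe set intensities of 9 Affymetrix mouse arrays, 3 each for control, PTHrP and PTH. How the authors summarised, background-corrected and scaled these intensities is not stated in what was used here. They were read as linear because each array's highest value was 17112.8 to 18614.2. The 45101 probe sets comprised 34945 with 1 gene symbol, 932 with several, 9160 with none and 64 array controls, per GEO's platform annotation, which can be old. The brightest probe set with 1 symbol stood for each of 18193 genes, of which 9010 had more than 1. Entrez IDs of 18032 genes were found in the RefSeq table, and no symbol changed.

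In limma 3.58.1 (R 4.3.3), log2(intensity + 16) was fitted over all 9 arrays with a mean per group. The contrasts were PTHrP minus control and PTHrP minus PTH, two-sided, with Benjamini-Hochberg adjustment across the 18193 genes and a threshold of 0.05. The number of arrays limits the precision. The steps were also run on simulated data with independent noise in each gene and array. Such data lack patterns shared by genes within an array, like that of the interferon-stimulated genes. Single values were compared by exact permutation. Upstream windows came from RefSeq's GRCm38.p6 table. Python 3.11.15 with matplotlib 3.10.9 drew the figures.

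The comparison, the 24 pathway lists and the 10 marker lists were chosen with earlier results of these data known. Named were the 15 largest rises and 15 largest falls with no overlap between groups, passing over clone names; listed members that passed and up to 4 per list that did not; Pth1r, Ucp1, Dio2, Ppargc1a, Lep, Adipoq, Vdr, Tnfsf11 and Crem; and the 5 smallest p between the peptides. Marker genes outside that rule were named because of their values. Alternatives were pseudocounts of 1 and 64, quantile normalization, centring on the median or 75th percentile, dropping the dimmest 40% of genes, averaging probe sets, testing every probe set, array weights, a trended and robust variance, a replicate block, the 2 groups alone, each array left out in turn, an adjusted p of 0.01 and a 1.5-fold minimum. No scan batch was fitted, for want of scan dates in these sources. Whether replicate numbers pair the samples is not stated, and the main fit did not pair them.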

Additional observations from a re-analysis of the deposited data

Results flagged for a closer look

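Probe sets that no gene symbol or several symbols name were left out of the comparisons above and tested apart, in 1 fit over all probe sets (limma). Of 9160 probe sets without a symbol, 75 passed the adjusted threshold of 0.05 (0.819%), 40 higher and 35 lower with PTHrP. Of 932 with several symbols, 5 passed (0.536%), 1 higher and 4 lower, against 996 of 34945 with 1 symbol (2.85%). The largest change among those without a symbol was from a mean signal of 206.9 to one of 1389, a log2 change of 2.67 (adjusted p = 9.16e-05, limma, n = 3 arrays per group).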

How the results depend on the processing

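The count of called genes (1013; 462 higher, 551 lower) was 1672 (726 and 946) without the dimmest 40% of genes, 1648 (738 and 910) with a trended and robust variance, 455 (231 and 224) with the 2 groups alone, 398 (203 and 195) at an adjusted p of 0.01 and 199 (110 and 89) with a 1.5-fold minimum. With 64 added, 830 fell. The count of genes changed at least 2-fold (38) was 76 with 1 added and 21 with 64. Between the peptides, 2 genes passed with 1 added, against 0. Leaving out each array in turn gave 513 to 770 calls, 244 to 355 higher, 269 to 421 lower, 34 to 65 at least 2-fold and 0 to 1 between the peptides. Residual correlations of same-numbered control and PTHrP arrays were 0.072, -0.17 and -0.09, and those of differently numbered arrays lay between -0.107 and 0.19. With 3 arrays per group these values cannot show whether the replicate numbers pair the samples. The replicate number as a block gave 575 calls (266 and 309). Of the 165 called genes named by rule, none reversed under any of these settings, and 0 of 156 tested were lost without the dimmest genes, 2 with 64 added, 42 with the mean of probe sets, 46 with the block and 66 with the 2 groups alone. Centring moved the share of calls that were higher from 45.6% to between 44.2% and 51.5%. Signal over background limits genes below the dim level, whose changes depend on the added constant. The cause of these differences was not tested.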
